A study of Mus musculus with 14 samples.

Results

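Complex I of the respiratory chain was followed here through 43 nuclear genes of the 18193 genes measured on the arrays. A gene was a member if a probe set carried its symbol alone and that symbol began with Nduf followed by a subunit or assembly factor letter and number. Ndufa4l2 was left out. Where several probe sets carried 1 symbol, the brightest on average stood for the gene. Of the members, 5 encode subunits that hold iron-sulfur clusters in the matrix arm (Ndufs1, Ndufs7, Ndufs8, Ndufv1 and Ndufv2). The other 38 encode other subunits or assembly factors, save Ndufa4, which is now counted with complex IV. Ndufa4 met the symbol rule and was kept in all counts and medians of the members. Ndufs6 and Ndufa11 were found on probe sets that name several genes, so these subunits were not analysed here.

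The material was ribosome-bound mRNA of dopaminergic neurons from mouse ventral midbrain, isolated with the RiboTag method, in which tagged ribosomes of a chosen cell type are pulled from a tissue lysate. Tfr1ΔDN mice lack transferrin receptor 1, the receptor that brings iron into cells, in dopaminergic neurons, and the controls are heterozygous for the Tfr1 allele. All mice carried the Ribotag background and were F2 mice of 129Sv and C57BL/6. The sources used here name no Cre driver and do not say whether the replicates of a group are separate animals, so p-values measure the spread between these libraries, which may be technical. The age of 3 weeks, labelled early in the neurodegeneration, had 3 control libraries and 4 Tfr1-null ones. The age of 10 weeks, labelled late, had 4 control libraries and 3 Tfr1-null ones.

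The label of 1 library at each age was doubtful. The library labelled Tfr1-null 3 weeks 1 has a source name that says control, and its 5' Tfrc probe set read 9.67 against 9.50 to 9.59 in controls and 6.88 to 7.73 in the other Tfr1-null libraries. The library labelled control 10 weeks 1 read 11.43 on the middle Tfrc probe set, within the 11.39 to 11.69 of the Tfr1-null libraries and above the 9.17 to 9.86 of the other controls. The main results are therefore given for all 14 libraries as labelled and for 12 libraries without these, and a difference or p with no number of libraries beside it is from the 12. Array medians were 6.41 to 6.47 at 3 weeks and 7.36 to 7.43 at 10 weeks, so levels were not compared between ages. At 3 weeks control 2 was the male library and the others were female, and at 10 weeks all 7 libraries were male. The dopaminergic markers Th, Slc6a3, Slc18a2, Ddc, Nr4a2 and Pitx3 were above the 25th percentile of the array in at least 1 library of each age.

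Complex I takes electrons from NADH and passes them along a chain of iron-sulfur clusters to ubiquinone while its membrane arm pumps protons. The N module oxidises NADH, the Q module reduces ubiquinone, and the membrane arm is built in proximal and distal parts around subunits encoded in the mitochondrial genome. Assembly factors join these parts and are not kept in the finished enzyme. Loss of complex I activity is a long-studied feature of dopaminergic neurons in Parkinson's disease, and the clusters are made in mitochondria from imported iron.

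The bases just upstream of the start site are shown for the 6 members that passed the test at 10 weeks, since these are the genes on which the comparison turned. Each line gives 120 bases before the annotated start, 5′ to 3′ on the gene's strand, from RefSeq on GRCm38.p6.
Ndufb2, chr6:39592445-39592564, plus strand: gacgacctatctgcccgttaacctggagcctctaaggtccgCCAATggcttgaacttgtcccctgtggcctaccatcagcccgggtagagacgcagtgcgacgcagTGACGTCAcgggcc
Ndufa3, chr7:3617253-3617372, plus strand: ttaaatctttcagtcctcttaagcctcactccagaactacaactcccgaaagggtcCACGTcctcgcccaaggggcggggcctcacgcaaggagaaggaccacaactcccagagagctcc
Ndufaf2, chr13:108158626-108158745, minus strand: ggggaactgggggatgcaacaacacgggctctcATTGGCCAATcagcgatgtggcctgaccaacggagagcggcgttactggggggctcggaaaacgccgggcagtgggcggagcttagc
Ndufaf3, chr9:108567437-108567556, minus strand: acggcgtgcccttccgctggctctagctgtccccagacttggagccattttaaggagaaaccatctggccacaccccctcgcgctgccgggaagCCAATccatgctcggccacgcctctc
Ndufab1, chr7:122101849-122101968, minus strand: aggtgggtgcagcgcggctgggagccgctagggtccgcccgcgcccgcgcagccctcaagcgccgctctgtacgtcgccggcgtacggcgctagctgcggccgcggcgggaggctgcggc
Ndufa6, chr15:82354292-82354411, minus strand: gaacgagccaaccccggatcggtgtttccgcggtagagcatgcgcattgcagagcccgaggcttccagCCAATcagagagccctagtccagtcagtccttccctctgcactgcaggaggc
Capitals mark matches on either strand to CCAAT (the CCAAT box), TGACGTCA (the cyclic AMP response element) or ACGTG (the core of the hypoxia response element). Ndufb2 holds a CCAAT and a TGACGTCA match, Ndufa3 an ACGTG match read on the other strand, and Ndufaf2 a pair of adjoining CCAAT matches on opposite strands. Ndufaf3 and Ndufa6 each hold 1 CCAAT match, and Ndufab1 holds none of the 3.

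Motifs were counted in the 250 bases before the start, in 1 promoter for each of 27025 symbols, of which 39 were members. CCAAT was found in 4 of the 6 promoters above and in 33.3% of the members' promoters, near the 34.5% of all promoters. ACGTG was found in 15.4% of the members' promoters and 16.6% of all, and TGACGTCA in 5.1% and 1.6%. The site of NRF1, a factor for nuclear genes of mitochondrial proteins, was found in 12.8% of the members' promoters and 3.9% of all. The motif of ETS factors, GABP among them (CCGGAAG), was in 12.8% and 7.1%. The half-site read by receptors of the ERR kind (AAGGTCA) was in 7.7% and 4.1%. None of the 6 promoters above held the NRF1 or ETS motif in these 250 bases, and 1 held the ERR half-site. The CCAAT box and the cyclic AMP response element were chosen after the sequences had been read, and a match is a description of the letters.

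At 3 weeks no complex I member passed the test between Tfr1-null and control neurons. Differences are Tfr1-null minus control on the log2 scale throughout, tested with limma and called at a Benjamini-Hochberg adjusted p under 0.05 over all genes. With 14 libraries 0 of 43 members were called, where 0% of all genes were called, and with 12 libraries 0 of 43, where 1.84% of all genes were. At an unadjusted p under 0.05, 1 member (2.33%) passed in each fit, against 4.67% of all genes with 14 libraries and 10.6% with 12. The median difference of the members was 0.00 with 14 libraries and 0.01 with 12, beside 0.01 for all genes in both, and 18 members were lower and 25 higher in either fit.

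The member with the smallest p at 3 weeks was Ndufaf2, a chaperone of the late steps of assembly and a relative of the subunit Ndufa12. Its log2 signal was 11.07, 11.17 and 11.14 in controls, 10.38, 10.82 and 10.68 in Tfr1-null libraries 2 to 4, and 11.04 in the doubtful library labelled Tfr1-null 1. All Tfr1-null libraries lay below all controls, as in 2 of 43 members and 822 of 18193 genes with 14 libraries. The doubtful library lay closest to the controls. The difference was -0.50 (SE 0.13, adjusted p = 0.119, 12 libraries), or -0.40 (SE 0.15, adjusted p near 1.00) with 14 libraries. limma with array weights called it in the 12 libraries, with an adjusted p of 0.010.

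The next members lower at 3 weeks were Ndufb9 and Ndufb10, accessory subunits of the distal membrane arm. Ndufb9 read 12.96, 13.06 and 13.03 in controls and 12.96, 12.86, 12.96 and 12.84 in Tfr1-null libraries 1 to 4, a difference of -0.13 (SE 0.10, adjusted p = 0.785, 12 libraries). Ndufb10 read 12.32, 12.46 and 12.39 in controls and 12.36, 12.06, 12.37 and 12.27 in Tfr1-null libraries, a difference of -0.16 (SE 0.13, adjusted p = 0.820). The groups overlapped for both genes.

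The 3 members that were higher with the smallest p at 3 weeks were Ndufaf1, Ndufaf4 and Ndufv2. Ndufaf1, which works with Ecsit and Acad9 in building the membrane arm, read 8.05, 8.04 and 8.06 in controls and 7.70, 8.23, 8.85 and 8.25 in Tfr1-null libraries 1 to 4. Its difference of 0.39 (SE 0.23, adjusted p = 0.673, 12 libraries) came to 0.19 without Tfr1-null 3. Ndufaf4, a factor of the early Q module, read 9.71, 9.81 and 9.95 in controls and 9.81, 10.00, 10.01 and 9.97 in Tfr1-null libraries, a difference of 0.17 (SE 0.12, adjusted p = 0.762). Ndufv2 read 12.17, 12.33 and 12.41 in controls and 12.25, 12.38, 12.50 and 12.42 in Tfr1-null libraries, a difference of 0.13 (SE 0.10, adjusted p = 0.813). Leaving out the doubtful library put Ndufaf1 and Ndufaf4 above all controls in every remaining Tfr1-null library, and Ndufv2 still overlapped. Such a separation at 3 weeks was common with 12 libraries. It was found upward in 6 of 43 members and 2422 of 18193 genes, and downward in 3 members and 2118 genes.

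**Figure D1:**
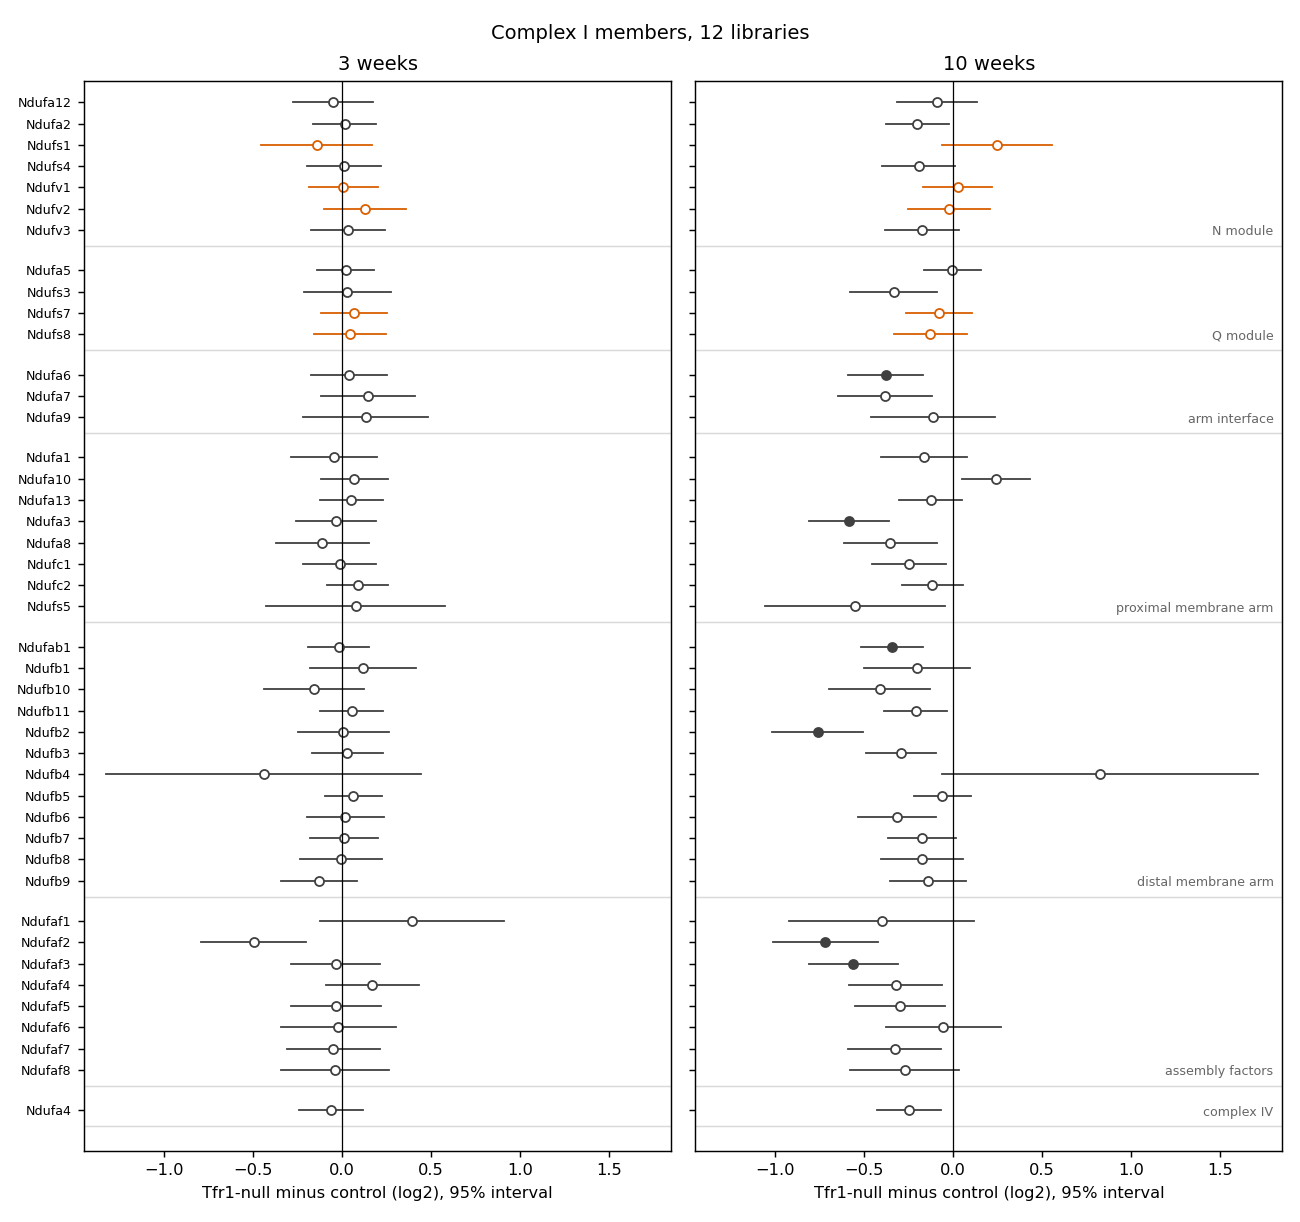
Difference between Tfr1-null and control libraries for each of the 43 members, in log2 units with the 95% interval from limma, at 3 weeks (left) and 10 weeks (right) in the 12 libraries, grouped by place in the enzyme. Filled points passed the test and orange marks the 5 iron-sulfur subunits; no point is filled at 3 weeks, and the 6 filled points at 10 weeks lie between -0.76 and -0.34.

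At 10 weeks complex I mRNAs were lower in Tfr1-null neurons for most members, and the members called were all lower. With 12 libraries 6 of 43 members were called lower (14.0%) and 0 higher, where 11.1% of all genes were called and 6.34% were called lower. The 6 were Ndufb2, Ndufa3, Ndufaf2, Ndufaf3, Ndufab1 and Ndufa6. The difference was below 0 for 39 members (90.7%, against 52.2% of all genes), and the median was -0.20 beside -0.01 for all genes. An unadjusted p under 0.05 was found for 21 members (48.8%), against 26.4% of all genes. In 22 members (51.2%) every Tfr1-null library lay below every control, as in 12.7% of all genes. In such bulk libraries fewer cells of a type and less RNA per cell cannot be told apart.

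With the 14 libraries as labelled, 2 members were called lower (4.65%) and 0 higher, where 1.21% of all genes were called and 0.616% called lower. Both, Ndufaf3 and Ndufab1, were also called with 12 libraries. An unadjusted p under 0.05 was found for 18 members (41.9%), against 19.9% of all genes. The difference was below 0 for 40 members (93.0%, against 52.7% of all genes), with a median of -0.19 beside -0.02, and every Tfr1-null library lay below every control in 12 (27.9%, against 5.58%). The calls of both genes were lost when any 1 library other than the doubtful control 10 weeks 1 was left out, while leaving out that control gave 6 calls. A fit to the 10-week libraries alone called 0 members with 14 or with 12 libraries; among the 6 genes its adjusted p was 0.064 to 0.190 with 12.

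**Figure D2:**
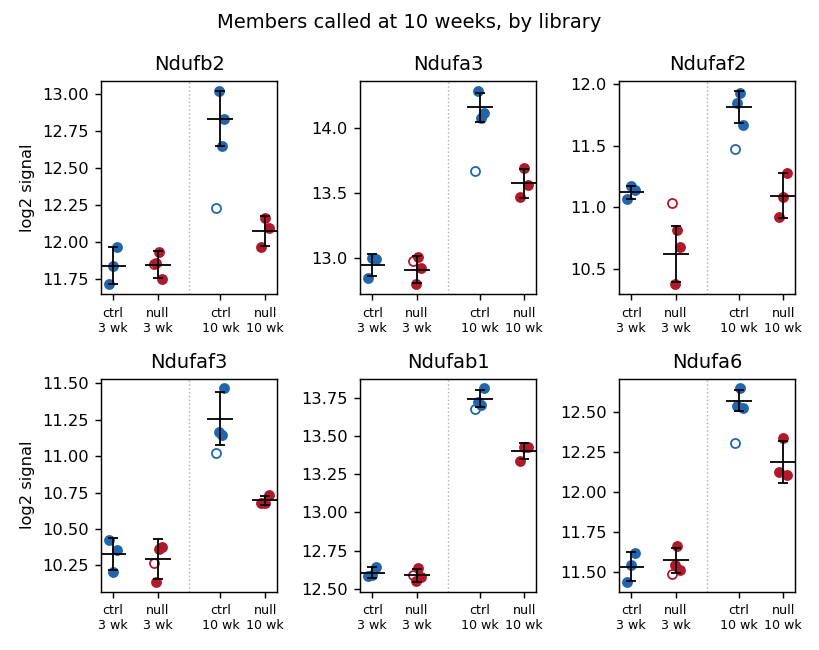
Log2 signal of the 6 members called at 10 weeks in every library, controls in blue and Tfr1-null in red, with 3 weeks left and 10 weeks right of the dotted line. Open circles are the doubtful libraries, and the bar and whiskers give the mean and SD of the rest; at 10 weeks every filled red point lies below every filled blue point, and the open control lies below the filled controls.

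Ndufb2, a small accessory subunit of the distal membrane arm, had the smallest p. At 10 weeks it read 13.02, 12.65 and 12.83 in controls 2 to 4, 12.23 in the doubtful control 1, and 11.96, 12.16 and 12.09 in Tfr1-null libraries. The doubtful control lay closer to the Tfr1-null libraries than to the other controls. The signal fell by 41.0% (difference -0.76, SE 0.12, adjusted p = 0.0027, 12 libraries), and the 14-library difference was -0.61 (SE 0.15, adjusted p = 0.064). At 3 weeks the same probe set read 11.71 to 11.96 in controls and 11.75 to 11.93 in Tfr1-null libraries, which overlapped throughout.

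Ndufa3, an accessory subunit of the proximal membrane arm, read 14.29, 14.08 and 14.11 in controls 2 to 4, 13.67 in the doubtful control 1, and 13.47, 13.69 and 13.56 in Tfr1-null libraries. The doubtful control fell inside the Tfr1-null range. The difference was -0.58 (SE 0.10, adjusted p = 0.0051, 12 libraries) and -0.46 (SE 0.13, adjusted p = 0.085, 14 libraries). Averaging its 3 probe sets gave -0.33 (adjusted p = 0.110).

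Ndufab1 is the mitochondrial acyl carrier protein, which sits in both arms of the enzyme and also carries acyl chains for lipoic acid synthesis and helps the machinery of iron-sulfur cluster assembly. It read 13.72, 13.70 and 13.81 in controls 2 to 4, 13.67 in the doubtful control 1, and 13.34, 13.43 and 13.43 in Tfr1-null libraries. Here the doubtful control lay with the controls and the groups did not overlap in either fit. The difference was -0.34 (SE 0.08, adjusted p = 0.018, 12 libraries) and -0.33 (SE 0.07, adjusted p = 0.047, 14 libraries). The call was lost in the 12 libraries without Tfr1-null 10 weeks 1 (adjusted p = 0.053), among other settings. Ndufab1 was called in 9 of 14 alternative settings with 12 libraries, with an adjusted p of up to 0.180. With 14 libraries it was called in 5 of 16, with an adjusted p of up to 0.408.

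Ndufa6, at the interface of the arms, is a protein of the LYR family that binds the acyl carrier protein. It read 12.54, 12.64 and 12.52 in controls 2 to 4, 12.30 in the doubtful control 1, and 12.12, 12.34 and 12.10 in Tfr1-null libraries. The doubtful control overlapped the Tfr1-null libraries. The difference was -0.38 (SE 0.10, adjusted p = 0.030, 12 libraries) and -0.31 (SE 0.10, adjusted p = 0.119, 14 libraries). Without Tfr1-null 10 weeks 1, Tfr1-null 10 weeks 3 or control 10 weeks 3 its adjusted p in the 12 libraries was 0.082, 0.081 and 0.077. Ndufa6 was called in 8 of 14 alternative settings with 12 libraries, with an adjusted p of up to 0.190.

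None of the other matrix arm members passed the test. In the N module the median difference at 10 weeks was -0.09, with 0 of 7 called and 5 of 7 lower (12 libraries). Of all genes 11.1% were called and 6.34% called lower, so with so few genes the counts called do not set the parts apart. Ndufa2 differed by -0.20 (adjusted p = 0.137) and Ndufs4, whose loss causes Leigh syndrome in mice and people, by -0.20 (adjusted p = 0.216). Neither overlapped between groups, but the second probe set of Ndufs4 differed by 0.07. Ndufv3 differed by -0.17 and Ndufa12 by -0.09. In the Q module the median was -0.10, with 0 of 4 called, and Ndufs3, a core subunit without a cluster, differed by -0.33 (adjusted p = 0.081) while Ndufa5 differed by -0.01. At the interface the median was -0.38, with Ndufa7 at -0.38 (adjusted p = 0.065) and Ndufa9 at -0.11 (adjusted p = 0.709).

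In the proximal membrane arm 7 of 8 members were lower, with a median of -0.21 and 1 called, where 6.34% of all genes were called lower. Ndufa8 differed by -0.35 (adjusted p = 0.083), Ndufc1 by -0.25 (adjusted p = 0.118), Ndufa1 by -0.17, Ndufa13 by -0.13 and Ndufc2 by -0.12. Ndufs5, on the face towards the intermembrane space, read 12.44, 13.48 and 12.51 in controls 2 to 4, 13.07 in control 1, and 12.16, 12.44 and 12.17 in Tfr1-null libraries. Its controls spread widely, and the difference was -0.55 (SE 0.23, adjusted p = 0.152). Ndufa10, an accessory subunit with the fold of a nucleoside kinase, was the exception in direction. It read 13.01, 13.17 and 13.18 in controls 2 to 4, 13.07 in control 1, and 13.38, 13.26 and 13.44 in Tfr1-null libraries, so that every Tfr1-null library lay above every control. The difference of 0.24 (SE 0.09, adjusted p = 0.0997) did not pass the test, and its second probe set differed by -0.39.

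In the distal membrane arm 11 of 12 members were lower, with a median of -0.21. Of these 2 were called, where 6.34% of all genes were called lower. Ndufb10 differed by -0.41 (adjusted p = 0.063), Ndufb6 by -0.32 (adjusted p = 0.066) and Ndufb3 by -0.29 (adjusted p = 0.061), each without overlap of the groups. Ndufb11, Ndufb1, Ndufb7, Ndufb8, Ndufb9 and Ndufb5 differed by -0.21, -0.20, -0.18, -0.18, -0.14 and -0.06. Ndufb4 was dim, at 6.74, 6.44 and 5.02 in controls 2 to 4, 5.00 in control 1, and 6.76, 6.42 and 7.50 in Tfr1-null libraries. Its controls split widely, and the difference of 0.82 (SE 0.40, adjusted p = 0.223) did not pass the test. Ndufa4, which is now counted with complex IV, differed by -0.25 (adjusted p = 0.077). With 14 libraries the medians were -0.09 in the N module, -0.09 in the Q module and -0.31 at the interface. They were -0.16 in the proximal and -0.21 in the distal membrane arm. Among these parts 1 member, Ndufab1, was called, where 0.616% of all genes were called lower.

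All 8 assembly factors of the Ndufaf series were lower at 10 weeks, with a median of -0.33 (12 libraries). Of these 2 were called, where 6.34% of all genes were called lower. With 14 libraries all 8 were lower, with a median of -0.29 and 1 call, where 0.616% of all genes were called lower. Ndufaf2 read 11.85, 11.93 and 11.67 in controls 2 to 4, 11.48 in the doubtful control 1, and 10.92, 11.08 and 11.28 in Tfr1-null libraries. The groups did not overlap in either fit, and the difference was -0.72 (SE 0.13, adjusted p = 0.0074, 12 libraries) or -0.63 (SE 0.15, adjusted p = 0.059, 14 libraries). Ndufaf3, which acts with Ndufaf4 early in the Q module, read 11.17, 11.14 and 11.47 in controls 2 to 4, 11.02 in control 1, and 10.68, 10.68 and 10.73 in Tfr1-null libraries. Its Tfr1-null libraries lay close together below all controls, and the difference was -0.56 (SE 0.11, adjusted p = 0.011, 12 libraries) or -0.50 (SE 0.11, adjusted p = 0.047, 14 libraries).

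The other assembly factors did not pass the test. Ndufaf1 differed by -0.40 with a wide spread (SE 0.23, adjusted p = 0.313), Ndufaf4 by -0.32 (adjusted p = 0.108) and Ndufaf7, a methyltransferase of assembly, by -0.33 (adjusted p = 0.101). Ndufaf5, which hydroxylates an arginine of Ndufs7, differed by -0.30 (adjusted p = 0.121), its partner Ndufaf8 by -0.27 (adjusted p = 0.245) and Ndufaf6 by -0.06 (adjusted p = 0.857). Ndufaf2 was lower at both ages without overlap of the groups, whereas Ndufaf3 read 10.20 to 10.42 in controls and 10.13 to 10.38 in Tfr1-null libraries at 3 weeks and overlapped.

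Of the 5 iron-sulfur subunits none passed the test at 10 weeks in either fit or in any alternative setting tried. With the brightest probe sets, none had an unadjusted p under 0.05 in either fit. Of all genes 11.1% were called with 12 libraries and 1.21% with 14, and 26.4% and 19.9% had an unadjusted p under 0.05. Beside such shares, a count of 0 among the 5 subunits says little. Their median difference was -0.03 with 12 libraries and -0.02 with 14, beside -0.25 and -0.20 for the 38 other members. Ndufs1, which holds clusters of the N module, read 11.94, 11.46 and 11.99 in controls 2 to 4, 11.98 in control 1, and 12.09, 12.15 and 11.88 in Tfr1-null libraries. Its difference of 0.25 (SE 0.14, adjusted p = 0.306, 12 libraries) came to 0.08 without control 10 weeks 3, the low library. Ndufv1, which binds the flavin that takes electrons from NADH, read 13.73, 13.59 and 13.69 in controls 2 to 4, 13.84 in control 1, and 13.82, 13.70 and 13.56 in Tfr1-null libraries. The groups covered the same range, and the difference was 0.02 (95% interval -0.17 to 0.22).

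Ndufv2, its partner in the N module, read 13.18, 13.35 and 13.24 in controls 2 to 4, 13.18 in control 1, and 13.05, 13.32 and 13.32 in Tfr1-null libraries, a difference of -0.03 (95% interval -0.26 to 0.20). Ndufs7, which carries the last cluster before ubiquinone, read 14.13, 14.06 and 14.12 in controls 2 to 4, 14.06 in control 1, and 14.01, 14.00 and 14.06 in Tfr1-null libraries, a difference of -0.08 (95% interval -0.27 to 0.11). Ndufs8, which holds clusters of the Q module, read 13.38, 13.46 and 13.42 in controls 2 to 4, 13.39 in control 1, and 13.17, 13.38 and 13.32 in Tfr1-null libraries, a difference of -0.13 (95% interval -0.33 to 0.07). The groups met or overlapped for all 3. At 3 weeks the 5 subunits differed by at most 0.14 in size, and their median of 0.04 stood beside 0.01 for the other members (12 libraries).

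**Figure D3:**
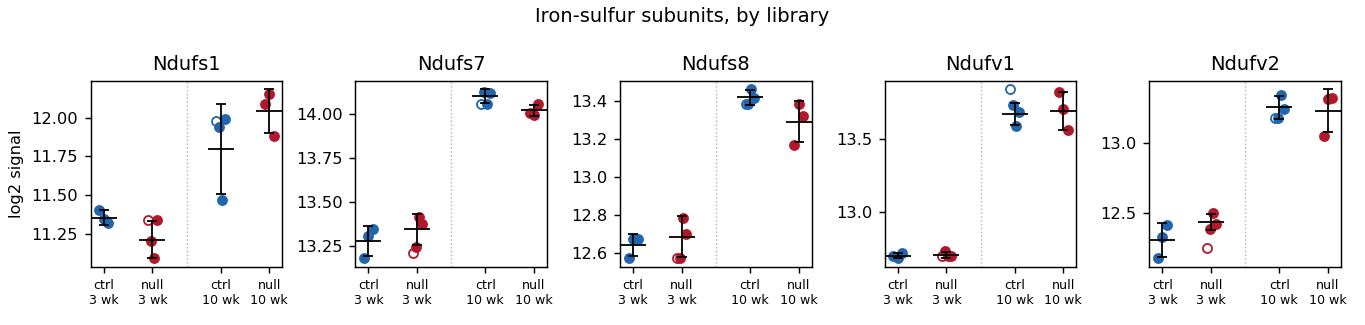
Log2 signal of the 5 iron-sulfur subunits in every library, controls in blue and Tfr1-null in red, with 3 weeks left and 10 weeks right of the dotted line. Open circles are the doubtful libraries, and the bar and whiskers give the mean and SD of the rest; the groups overlap or meet at 10 weeks, and the low Ndufs1 point is control 3 at 11.46.

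Library by library, the median of the iron-sulfur subunits less that of the other members was 0.19, 0.28 and 0.11 in Tfr1-null libraries 1 to 3 at 10 weeks and 0.03, -0.06 and 0.05 in controls 2 to 4 (12 libraries). The 3 Tfr1-null libraries lay above the 3 controls. With 14 libraries the values were 0.19, 0.20 and 0.11 in Tfr1-null libraries and 0.12, 0.00, -0.10 and 0.00 in controls 1 to 4, so that the doubtful control overlapped. The difference between the subunit medians at 10 weeks was 0.22 with 12 libraries and 0.19 with 14, and it was 0.12 to 0.22 with any 1 of the 14 left out. At 3 weeks it was 0.03 and 0.01. These medians are a description and were not tested.

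**Figure D4:**
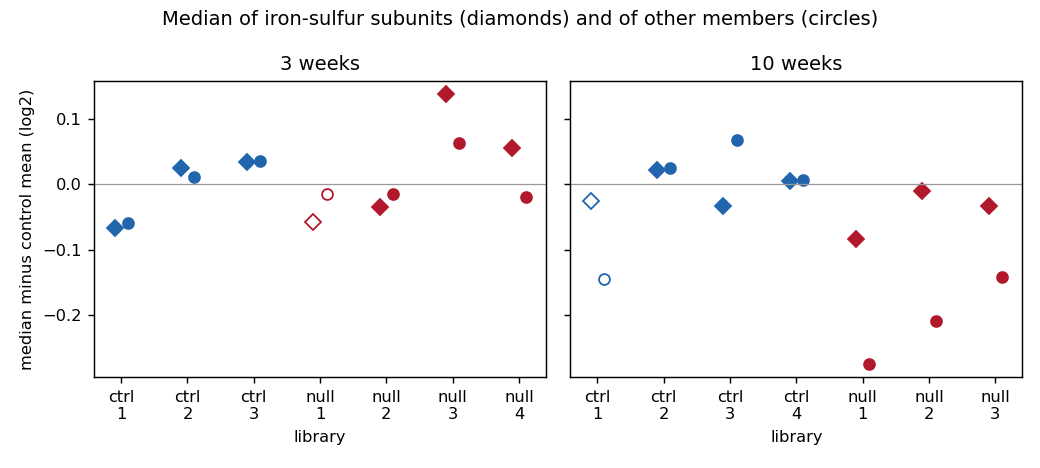
Median over the 5 iron-sulfur subunits (diamonds) and over the 38 other members (circles) of each library's log2 signal less the control mean of that age, with 14 libraries, controls in blue and Tfr1-null in red. Open symbols are the doubtful libraries; at 10 weeks the circles of the Tfr1-null libraries and of control 1 lie between -0.27 and -0.14, below their diamonds.

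Several dimmer probe sets of the iron-sulfur subunits were lower in Tfr1-null libraries by more than the brightest one. The 5 genes had 15 probe sets, of which 12 had a difference below 0 at 10 weeks with 12 libraries, and 0 were called in a fit to all 34945 single-symbol probe sets. In 7 of the 15 every Tfr1-null library lay below every control, as in 10.8% of all probe sets. With 14 libraries 14 of the 15 had a difference below 0, and 2 did not overlap, against 4.7% of all probe sets. Ndufs8 had 6 probe sets, and 3 that were dimmer than the first differed by -0.44 (adjusted p = 0.083), -0.38 (adjusted p = 0.084) and -0.46 (adjusted p = 0.058). The second probe set of Ndufs7 differed by -0.29 (adjusted p = 0.133), the third of Ndufv2 by -0.28 (adjusted p = 0.132) and the third of Ndufv1 by -0.20 (adjusted p = 0.237). Ndufs1 had 1 probe set. With the mean of all probe sets per gene the subunits stood 0.17 above the other members, and with the second brightest 0.23.

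Probe sets of the other members also differed within a gene. In the fit to single probe sets, 15 of the 87 member probe sets were called lower, from 11 genes, and 0 higher, where 9.33% of all probe sets were called and 4.79% called lower (12 libraries). With 14 libraries 1 was called lower, for Ndufab1, where 0.738% were called and 0.303% called lower. The second probe set was called while the brightest was not for Ndufc1 (-0.71, adjusted p = 0.0041, against -0.25), Ndufb7 (-0.63, adjusted p = 0.0054, against -0.18) and Ndufb5 (-0.47, adjusted p = 0.019, against -0.06). Both bright probe sets were called for Ndufb2 (-0.76 and -0.86), Ndufa3 (-0.58 and -0.58) and Ndufab1 (-0.34 and -0.50). For Ndufs4, Ndufc2 and Ndufa12 the brightest probe set was below 0 (-0.20, -0.12 and -0.09). Their second ones were above 0 (0.07, 0.11 and 0.03). Of the 22 members with more than 1 probe set the second was lower than the brightest in 13, with medians of -0.27 and -0.18. The 18 members with a mean log2 signal over 13 had a median of -0.17, and the 25 under it -0.32; the part of signal level in the differences was not tested.

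**Figure D5:**
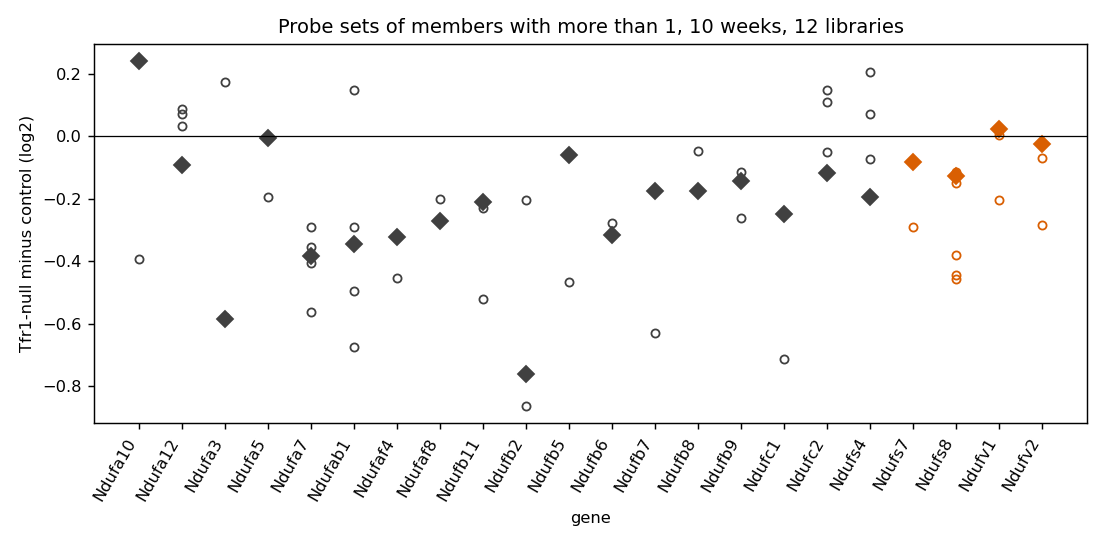
Difference between Tfr1-null and control libraries at 10 weeks (log2, 12 libraries) for every probe set of the 22 members with more than 1. Diamonds are the brightest probe set and circles the others, with the iron-sulfur subunits in orange; the circles of Ndufs8 reach -0.46 and that of Ndufc1 -0.71, below their diamonds at -0.13 and -0.25.

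The change of the genotype difference from 3 to 10 weeks was tested as an interaction in limma. With 14 libraries 0 of 43 members were called, where 0% of all genes were. In that fit 10 members (23.3%) had an unadjusted p under 0.05, against 7.48% of all genes. With 12 libraries 0 of 43 were called, where 0.286% of all genes were, and 13 (30.2%) had an unadjusted p under 0.05, against 12.2% of all genes. The smallest adjusted p was 0.104, for Ndufb2, whose interaction was -0.77 on the log2 scale. Its second probe set was called when it stood for the gene. The median interaction of the members was -0.22 with 12 libraries and -0.17 with 14, beside -0.03 for all genes in each.

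Of 14 measured assembly factors without an Nduf symbol, 6 were called lower and 0 higher at 10 weeks with 12 libraries, where 6.34% of all genes were called lower. The difference was below 0 for 10 of the 14, while Acad9 (0.24), Foxred1 (0.09), Timmdc1 (0.08) and Nubpl (0.06) were above it without passing the test and were named after their values were seen. With 14 libraries 0 were called, and 8 of the 14 factors had an unadjusted p under 0.05, against 19.9% of all genes. Dmac1, which helps build the distal membrane arm, differed by -0.96 (adjusted p = 0.0032), and Aifm1, the inner membrane protein that anchors the import oxidoreductase Chchd4, by -0.76 (adjusted p = 0.010). Tmem126b, a partner of Ndufaf1, differed by -0.59 (adjusted p = 0.012) and Dmac2 by -0.37 (adjusted p = 0.015). At 3 weeks 0 of 14 were called, and 0 had an unadjusted p under 0.05, against 10.6% of all genes (12 libraries). The signal of the single measured mitochondrially encoded subunit, ND5, went the other way. It was 0.38 higher at 10 weeks with 12 libraries (SE 0.11, adjusted p = 0.041) and 0.32 higher with 14 (adjusted p = 0.138). Whether this transcript came with the tagged ribosomes of dopaminergic neurons or was carried over from the lysate was not tested.

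Other mitochondrial proteins with an iron-sulfur cluster did not pass the test. Of 8 measured, 0 were called at 10 weeks with 12 libraries, where 11.1% of all genes were called. An unadjusted p under 0.05 was found for 2, as for 26.4% of all genes. The median difference was -0.13 and 5 were lower. With 14 libraries 0 were called, where 1.21% of all genes were, and the median was -0.11. In that fit 1 had an unadjusted p under 0.05, as did 19.9% of all genes. Fdx1, a mitochondrial ferredoxin, differed by -0.37 (adjusted p = 0.057), and Uqcrfs1, the Rieske protein of complex III, by -0.29 (adjusted p = 0.145). Sdhb of complex II differed by 0.03.

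Markers of the neurons and of other cells also differed at 10 weeks, and their part in the complex I differences was not tested. Of 6 dopaminergic markers 5 were lower, with a median of -0.31, and 1, Ddc, was called (-0.32, adjusted p = 0.049, 12 libraries). The log2 sum of the 6 was 16.53 to 16.57 in controls and 16.13 to 16.45 in Tfr1-null libraries. With 14 libraries the sums of controls were 16.17 to 16.57 and overlapped, and Ddc was not called (-0.24, adjusted p = 0.224). At 3 weeks all 6 were below the control mean with 12 libraries, with a median of -0.20 and 0 called. Of these 2 had an unadjusted p under 0.05, against 10.6% of all genes. The sums at that age were 15.64 to 15.70 in controls and 15.44 to 15.52 in Tfr1-null libraries. Of 3 GABAergic markers all were higher and Slc32a1 was called (0.70, adjusted p = 0.0071), with a log2 sum of 12.73 to 13.02 in controls and 13.07 to 13.47 in Tfr1-null libraries. With 14 libraries Slc32a1 was not called (0.49, adjusted p = 0.196), and the sums of controls were 12.73 to 13.44 and overlapped. Markers of astrocytes (5), oligodendrocytes (4), microglia (5), endothelial cells (5) and glutamatergic neurons (2) had 0 calls in either fit. In the 12 libraries 1, 0, 2, 0 and 0 of these markers had an unadjusted p under 0.05, against 26.4% of all genes. Their log2 sums in controls and Tfr1-null libraries were 12.02 to 12.92 and 12.27 to 13.05 for astrocytes, and 11.26 to 12.03 and 11.50 to 12.56 for microglia. They were 14.21 to 14.80 and 14.33 to 14.67 for oligodendrocytes, 9.31 to 9.66 and 9.61 to 9.69 for endothelial cells, and 10.56 to 11.11 and 10.45 to 11.01 for glutamatergic neurons. No marker was under the 25th percentile in every library. The 3' minus 5' signal of Actb, a sign of RNA quality, was -0.25, -0.45 and -0.49 in controls 2 to 4 and -0.20 in control 1. It was -0.28, -0.32 and -0.17 in Tfr1-null libraries, which overlapped. That of Gapdh was 0.71, 0.64 and 0.61 in controls 2 to 4. It was 0.66, 0.58 and 0.57 in Tfr1-null libraries, which overlapped. At 3 weeks Gapdh did not overlap with 12 libraries, at 0.63 to 0.74 in controls and 0.56 to 0.60 in Tfr1-null libraries. The doubtful Tfr1-null 1 read 0.71. The part of RNA quality in the differences was not tested.

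Outside the members, the genes most like the member mean over the 14 libraries, each less its age mean, were Atp5mpl (r = 0.97), Romo1 (r = 0.96), 1110065P20Rik (r = 0.95), Ube2v2 (r = 0.95) and Naa60 (r = 0.94). These correlations are a description over libraries that share arrays and amplification. All 5 were called lower at 10 weeks with 12 libraries, by -0.47, -0.38, -0.52, -0.52 and -0.60, where 6.34% of all genes were called lower. The genotype difference was part of the pattern by which they were chosen, so their lower signal adds no separate evidence.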

How the data were processed

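The deposited log2 values came from Affymetrix arrays normalised by the authors with RMA in Partek 6.5, per the submitters' processing notes; 50 ng of RNA was amplified with the NuGEN Ovation V2 kit, per the labels' protocols. No source used here names a genome build. Of 45101 probe sets, 34945 with 1 gene symbol, control probe sets left out, gave 18193 genes. No dim gene was removed. Array number limits the precision. limma 3.58.1 (R 4.3.3; lmFit, eBayes) fitted a mean for each of 4 groups with 1 spread per gene and tested Tfr1-null against control at 3 and 10 weeks and their difference, adjusted over all genes. SE is the moderated standard error. The script was tested on simulated data.

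Libraries were grouped by title and genotype. The members and lists were chosen with earlier results of these data known. Named in full are the iron-sulfur subunits and, at each age, the called members or else the 3 lower and 3 higher with the smallest p; other members by their differences, assembly factors all, other lists by up to 4 called genes or 2 with the smallest p, and the 5 genes most alike. Ndufa10, Ndufs5, Ndufb4, Sdhb and single probe sets were chosen after their values were seen. Alternatives were the doubtful libraries left out, the probe set rule, centring, dim genes left out, 1 age alone, array weights, trend and robust settings, a replicate block and each library left out. Promoters were searched with Python 3.11.15.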

Additional observations from a re-analysis of the deposited data

Results flagged for a closer look

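In 3 of 30 groups of 4 libraries, over 15 members, 1 library stood apart by Dixon's ratio, of which chance gives about 5%. For Ndufs1 at 10 weeks control 3 read 11.46 against 11.94 to 11.99 in the other controls (ratio 0.899). For Ndufb10 at 10 weeks the doubtful control 1 read 12.71 against 13.22 to 13.28 (ratio 0.895). For Ndufv1 at 3 weeks Tfr1-null 2 read 12.73 against 12.70 in the other Tfr1-null libraries (ratio 0.978), a gap of few hundredths of a log2 unit.

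Ndufaf4 was above all controls in every Tfr1-null library at 3 weeks and below all controls at 10 weeks in the 12 libraries. At 3 weeks 6 of 43 members and 2422 of 18193 genes lay above in this way. At 10 weeks 22 members and 2305 genes lay below. The interaction of Ndufaf4 was -0.492 (SE 0.17, adjusted p = 0.263, limma) and did not pass the test.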

How the results depend on the processing

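With 12 libraries the count of members called at 10 weeks, 6, became 2 with array weights, 15 with trend and robust settings and 0 with the 10-week libraries alone; with any 1 library left out it was 4 to 8. With 14 libraries the count of 2 became 0 with the mean of all probe sets, array weights, the replicate block or the 10-week libraries alone, 1 with the second brightest probe set (chosen after seeing the data) or centred arrays, and 6 with 12 libraries; leaving out 1 library gave 0 to 6. The replicate block gave 4 calls with 12 libraries. Same-numbered libraries correlated by -0.03 to 0.09 in their deviations over all genes, which does not settle whether equal numbers share more than a name. At 3 weeks array weights gave 1 call in either fit. The median of the members at 10 weeks with 12 libraries was -0.264 with the mean of probe sets and -0.278 with the second brightest, which also gave 1 call in the interaction. At 3 weeks the iron-sulfur subunits less the other members came to -0.0298 with the mean of probe sets and to 0.014 to 0.0811 with 1 of the 12 libraries left out, the highest without Tfr1-null 3 weeks 2. No called value changed sign, and 84 values each of the members' median and of the iron-sulfur comparison stayed within 1 SD between libraries. The cause of these changes was not tested, save that fewer libraries enter a fit to 1 age.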
